A study of Mus musculus with 2 samples.

Results

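The cells described here are choroid plexus epithelial cells that hold almost no transcripts of Vat1l, Nefh, Cox8b, Frmpd4 and Pcp4. They were taken from droplet single-cell RNA sequencing of dissociated whole brain from APP-KI mice, which carry a knock-in of the amyloid precursor gene, at 6 months of age. There was 1 library per genotype, Fit2-WT and Fit2-Mut, and both carried the APP knock-in. The design text places the Fit2 disruption in macrophages. The labels do not say how the gene was altered, which driver was used or how many animals were pooled. A barcode was included when it had at least 1000 UMIs (unique molecular identifiers, counted molecules), at least 500 genes and at most 10% mitochondrial UMIs. It also needed at least 8 summed UMIs of Folr1, Kl, Clic6, Kcne2, Kcnj13 and Otx2, making up at least 0.1% of its UMIs. It could hold at most 3 UMIs of the ependymal genes Tmem212 and Ccdc153, and at most 5 of Aqp4, Gja1, Mog and Cldn5. Finally, the 5 panel genes together had to give at most 1 UMI. This selected 68 low-panel cells among 11312 barcodes within the depth and mitochondrial limits, 24 of 5333 in Fit2-WT and 44 of 5979 in Fit2-Mut.

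The choroid plexus is a sheet of epithelium that lines tufts of leaky capillaries in the brain ventricles. It secretes cerebrospinal fluid by moving ions and water from blood to ventricle, loads that fluid with carrier proteins such as transthyretin (Ttr), and imports vitamins and other nutrients. Much of its transcriptome therefore serves the secretory route through the endoplasmic reticulum and the transporters of the apical and basolateral membranes, while its ion pumps draw on mitochondrial ATP.

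The 24 Fit2-WT cells held 153900 UMIs and the 44 Fit2-Mut cells 304520. Median depth was 5747 UMIs per cell for Fit2-WT (1054 to 12834) and 6803 for Fit2-Mut (1604 to 14561). The libraries as a whole held 52491901 and 63234140 UMIs over all barcodes. They shared 10 cell barcodes among those within limits, and none of these was a low-panel cell. Scrublet called 2.33% and 2.59% of barcodes doublets, among them 1 low-panel cell in each library. With 1 library per genotype there is no replicate, so no p-value is given. All intervals are 95% intervals for counting error alone; the spread between animals or dissociations is not in them.

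The label of choroid plexus epithelium was checked against 5 markers, of which Ttr, Sostdc1 and Steap1 did not enter the selection. Ttr was found in every low-panel cell, but also in 98.9% and 99.2% of ependymal cells, so only its level bears on the label. Its median share of UMIs was 35.8% and 40.3% in the Fit2-WT and Fit2-Mut cells, against 0.0518% and 0.0502% in 90 and 131 ependymal cells, the ciliated lining of the ventricles. Sostdc1, a secreted inhibitor of BMP and Wnt signals, had 1715 CPM (UMIs scaled to a total of 1000000) in Fit2-WT and 1859 in Fit2-Mut, against 21.0 and 26.1 in ependymal cells. The potassium channel gene Kcnj13 had 1053 and 716 CPM, and the metalloreductase gene Steap1 had 338 and 315. Folr1, the folate receptor of the plexus, had 1514 and 1517. Folr1 and Kcnj13 entered the selection and so do not bear on the label, as did Kl, the gene of klotho, a co-receptor for fibroblast growth factors, which had 695 and 585 CPM (ratio to panel-rich cells 1.16 and 0.932). The selection also limited ependymal, astrocyte, oligodendrocyte and endothelial genes, so low sums for those cell types were in part fixed by it. Summed markers were as follows: 10 ependymal genes gave 799 and 844 CPM, 12 microglial and macrophage genes 104 and 417, 8 astrocyte genes 279 and 42.7, 8 oligodendrocyte genes 117 and 112, and 8 neuronal genes 13.0 and 3.28. The cell called a doublet in Fit2-WT held 36 of the 43 astrocyte marker UMIs. The one in Fit2-Mut held 96 of the 127 microglial marker UMIs. A further 3 low-panel cells, 1 in Fit2-WT and 2 in Fit2-Mut, were shallow and had under 10% Ttr, between 1.93% and 6.44%. Barcodes of 10 to 100 UMIs, which read free RNA, held 47508.5 and 46022.4 CPM of Ttr. In these 3 cells Ttr was thus near the free-RNA level and does not bear on the label. Counts of genes and the values these 5 cells bear on most are given with and without them.

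Low-panel cells were a small share of the plexus epithelium in both libraries. They were 24 of 1402 choroid plexus epithelial barcodes in Fit2-WT, or 1.71% (exact Clopper-Pearson interval 1.10 to 2.54). In Fit2-Mut they were 44 of 1451, or 3.03% (2.21 to 4.05). The ratio of shares was 1.77 (1.05 to 3.05), and over all barcodes within limits it was 1.64 (0.973 to 2.81). Without the 5 cells that stand apart the shares of the epithelium were 1.57% and 2.83%. Both the share and its ratio depend on the panel limit: with the limit at 0 the shares were 0.285% and 1.17%, and with it at 3 they were 5.63% and 8.41%.

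The selection set the levels of the panel genes, which are given as a description. In low-panel cells Vat1l, related to a synaptic vesicle membrane protein, had 9 and 10 UMIs in the Fit2-WT and Fit2-Mut libraries, at 58.5 and 32.8 CPM. Pcp4, a small calmodulin-binding protein, had 8 and 12 UMIs, and Cox8b, a subunit of cytochrome c oxidase, had 3 and 4. Frmpd4, a scaffold protein, had 0 and 1. Nefh, the neurofilament heavy chain, had none in either library, which allows up to 19.5 and 9.85 CPM at 3 counts. In the panel-rich cells, the 1323 Fit2-WT and 1329 Fit2-Mut epithelial cells with at least 4 panel UMIs, Pcp4 had 1127 and 1101 CPM, Cox8b 530 and 382, Vat1l 207 and 215, Frmpd4 51.6 and 51.3, and Nefh 48.4 and 45.1. Pcp4 in low-panel cells, at 52.0 and 39.4 CPM, was under its level of 177 and 162 CPM in barcodes of 10 to 100 UMIs, which read free RNA.

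Values just inside and just outside the panel limit are given as a description, first over all depths. The 20 Fit2-WT cells with 1 panel UMI had a median of 36.6% Ttr, and the 25 with 2 panel UMIs had 27.9%. In Fit2-Mut the 27 cells with 1 had 40.0% and the 29 with 2 had 33.7%. Kcnj13 had 1090 CPM in the Fit2-WT cells with 1 panel UMI and 633 in those with 2, and 786 and 609 in Fit2-Mut. The same steps for Folr1 were from 1595 to 1203 CPM (Fit2-WT) and from 1611 to 1131 (Fit2-Mut). A shallow cell is more likely to fall under a limit on UMIs. Low-panel cells were shallower than panel-rich cells, whose medians were 10665 and 10601 UMIs. Within one band of depth, 4000 to 10000 UMIs, Ttr was still lower at 4 or more panel UMIs. Its median was 41.0% in Fit2-WT and 40.0% in Fit2-Mut with 1 panel UMI, 31.4% and 29.9% with 4 to 9, and 10.3% and 10.1% with 20 or more. Just outside the limit it was 32.5% and 38.7% with 2, and 38.9% and 37.7% with 3. In this band the step from 1 to 2 panel UMIs was thus small in Fit2-Mut, where Folr1 went from 1484 to 1405 CPM. In Fit2-WT, Ttr did not fall steadily. From 1 to 20 or more panel UMIs, Sostdc1 went from 1588 and 1654 CPM to 480 and 399. Folr1, which like Kcnj13 entered the selection, went from 1699 and 1484 to 471 and 444. Depth was not equal within the band: its median rose from 5897 and 6235 UMIs to 8125.5 and 7886 over the same range. By Ttr and Sostdc1, which did not enter the selection, the low-panel cells lay at one end of a gradient within the epithelium. The steps are those of the panel that defined the cells, so the gradient is a description, and the part of depth in it was not tested.

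**Figure D1:**
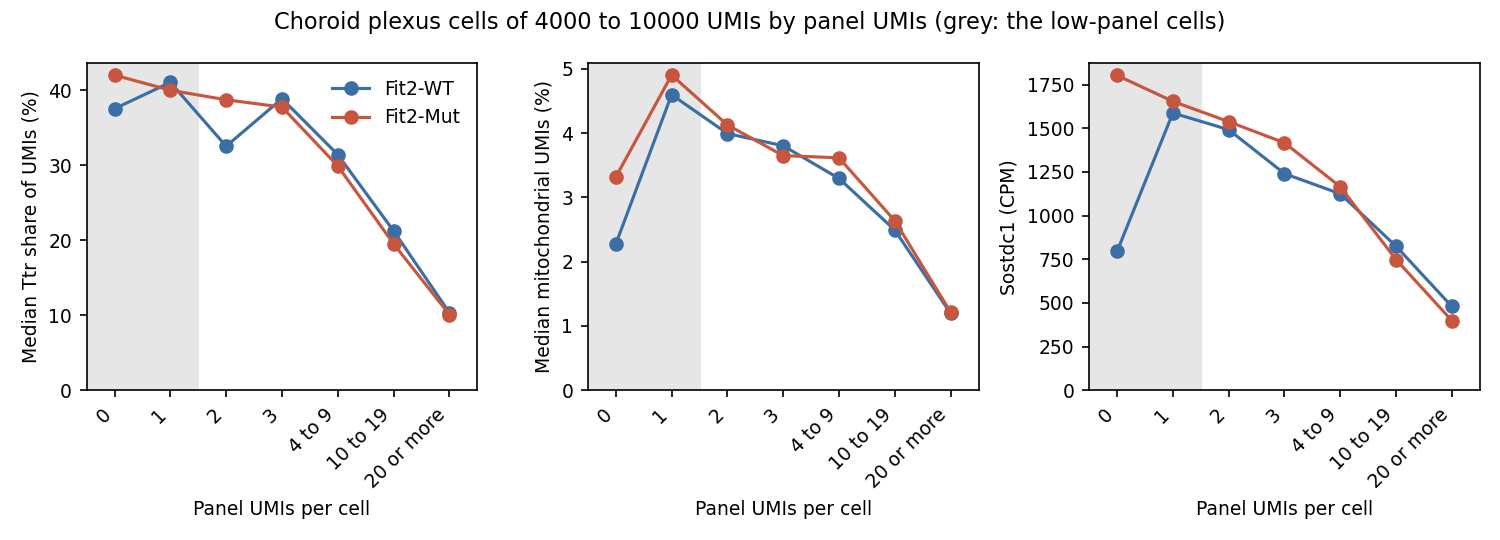
Median Ttr share of UMIs (left), median mitochondrial share of UMIs (middle) and Sostdc1 in CPM (right) against the summed UMIs of the 5 panel genes, in choroid plexus epithelial cells of 4000 to 10000 UMIs, with 1 point per library and step. Ttr went from 41.0% and 40.0% at 1 panel UMI to 10.3% and 10.1% at 20 or more; the Fit2-WT point at 0 panel UMIs rests on 2 cells.

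The low-panel cells also differed from panel-rich cells in measures of cell state and quality. With every cell thinned to 2000 UMIs, the median number of genes was 739.5 in Fit2-WT and 728.5 in Fit2-Mut low-panel cells, against 952 and 945 in panel-rich cells. The 2000 UMIs include Ttr, with median shares of 35.8% and 40.3% in low-panel and 21.0% and 21.5% in panel-rich cells. Fewer UMIs of other genes were thus left in low-panel cells, and the part of this in the gene number was not tested. The mitochondrial share was 4.03% and 3.83%, against 2.13% and 2.52%. Malat1, a nuclear long noncoding RNA, made up a median of 0.0623% and 0.0557% of UMIs, against 0.0200% and 0.0190%, and in ependymal cells it was 2.35% and 2.18%. The part of depth, RNA quality and free RNA in the differences below was not tested.

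Compared with panel-rich cells, low-panel cells had higher levels of most measured transcripts of the secreted, ion transport and endoplasmic reticulum chaperone lists, and lower levels of most nuclear-encoded subunits of oxidative phosphorylation. On the scale of CPM most genes of any kind were lower. Of 1730 genes with enough counts, 111 were at least 1.5-fold higher in both libraries (6.42%) and 584 at least 1.5-fold lower (33.8%). The median log2 ratio over these genes was -0.52 in Fit2-WT and -0.63 in Fit2-Mut. Ttr alone took 373405 and 392106 CPM in low-panel cells, which lowers the CPM of every other gene. With Ttr left out of the totals the median was -0.21 and -0.28, and the split was 260 higher and 129 lower. With the median of all genes set to 0 it was 309 higher and 29 lower, and without the 5 cells that stand apart, on the first scale, 110 higher and 494 lower. These cells were chosen on measured values of the same libraries, so the differences are a description of the choice and not tests of it.

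The leading genes on the higher side were mostly secreted or membrane proteins. Sostdc1 was highest by the lower bound of its ratio. The median Fit2-WT low-panel cell had 14.1 Sostdc1 UMIs per 10000 and the median Fit2-Mut cell 16.5, against 6.26 in panel-rich cells of either library, a CPM ratio of 2.04 (1.80 to 2.31) and 2.29 (2.11 to 2.50). Igfbp2, a binding protein for insulin-like growth factors, had 18.6 and 22.3 UMIs per 10000 in the median low-panel cell against 10.3 and 9.84, and ratios of 1.92 and 1.95. Per-cell values overlapped widely: Igfbp2 ran from 0 to 56.9 per 10000 in Fit2-WT low-panel cells and from 0 to 44.8 in panel-rich cells. Arl6ip1, a shaping protein of the endoplasmic reticulum membrane, had ratios of 1.96 and 1.85. Spint2, a membrane-bound protease inhibitor, had 1.94 and 1.97. Sfrp1, a secreted Wnt antagonist, had 2.38 and 2.29 on only 27 and 57 UMIs. Saraf, a regulator of store-operated calcium entry, had 2.29 and 2.02, and Npc2, a secreted and lysosomal cholesterol carrier, 1.93 and 1.78. Ecrg4, a secreted peptide precursor of the plexus, had 1.65 and 1.74. The copper importer gene Slc31a1 had 2.66 and 1.84.

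On the lower side, Ppia, the abundant cytosolic cyclophilin A, had 24.3 and 20.6 UMIs per 10000 in the median low-panel cell against 43.4 and 42.6 in panel-rich cells, and ratios of 0.536 (0.483 to 0.592) and 0.483 (0.447 to 0.522). Mif, a cytokine stored in the cytosol, had 533 and 545 CPM and ratios of 0.461 and 0.495. Top1, DNA topoisomerase 1, had ratios of 0.329 and 0.370. Cdkn1c, a cyclin-dependent kinase inhibitor, had 0.377 and 0.506, and the superoxide dismutase gene Sod1 had 0.332 and 0.468. The chaperone gene Hsp90aa1 had 0.489 and 0.508, Vcp, an ATPase that extracts proteins for degradation, 0.394 and 0.444, and Chchd10, a mitochondrial intermembrane protein, 0.503 and 0.538. Prr32 had 0.352 and 0.448. Ppia has near-identical pseudogene copies, so its count is uncertain.

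**Figure D2:**
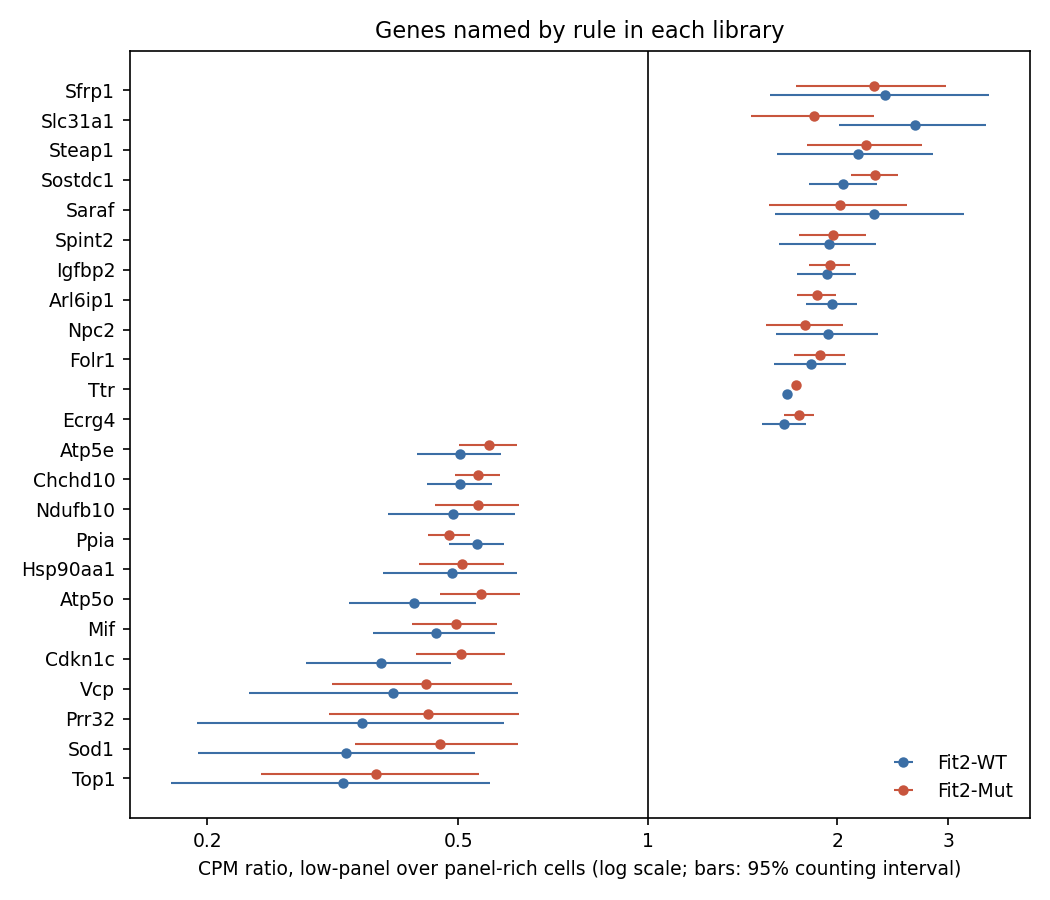
CPM ratio of low-panel over panel-rich choroid plexus cells on a log axis for the 12 highest and 12 lowest genes, with 95% counting intervals, in Fit2-WT (blue) and Fit2-Mut (red). All 24 genes lie on the same side of 1 in both libraries because the naming rule required it; Sostdc1 is at 2.04 and 2.29, and Ppia at 0.536 and 0.483.

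Secreted proteins of the cerebrospinal fluid, which include Ttr, were mostly higher. Of 18 measured, 13 were above 1 in both libraries and 3 below, with a median log2 ratio of 0.55 in Fit2-WT and 0.72 in Fit2-Mut; 6 were past 1.5-fold up and 1 down, beside 6.42% and 33.8% of all genes. Enpp2, autotaxin, which makes lysophosphatidic acid, had 135 and 142 UMIs per 10000 in the median low-panel cell against 88.7 and 92.0 in the median panel-rich cell. Clu, an extracellular chaperone that binds amyloid, had 2411 and 2781 CPM, ratios of 1.58 and 1.86. The protease inhibitor gene Cst3 had 1.55 and 1.76, and the lipid carrier gene Apoe 1.28 and 1.57. Leaving Ttr out of every cell's total, the list took a median of 5.62% and 6.46% of the remaining UMIs in low-panel cells and 3.51% and 3.51% in panel-rich cells.

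Transporters were higher on balance, with exceptions. Of 16 genes of ion and water transport, 12 were above 1 in both libraries and 3 below, with a median of 0.43 and 0.61; 4 were past 1.5-fold up and 2 down, beside 6.42% and 33.8% of all genes. Atp1b1, a subunit of the sodium pump, had 793 and 811 CPM and ratios of 1.75 and 1.67. Its regulator Fxyd1 had 1.63 and 1.44. The potassium channel subunit Kcne2 had 1.69 and 1.79, though it entered the selection. The bicarbonate exchanger gene Slc4a10 had 1.51 and 1.69. The water channel gene Aqp1, with too few UMIs to be counted in the list, had 1.52 and 1.67 on 9 and 25 UMIs. The genes below 1 were Stk39, a cytosolic kinase that controls chloride cotransporters (0.527 and 0.516), the cytosolic carbonic anhydrase Car2 (0.638 and 0.604) and the intracellular chloride channel Clic6 (0.769 and 0.502). Clic6 also entered the selection. Of 8 genes of nutrient and vitamin uptake, 7 were above 1 in both libraries and 1 below, 3 of them past 1.5-fold up, beside 6.42% of all genes, with medians of 0.78 and 0.65. Folr1, which is past 1.5-fold but entered the selection, had 1.82 and 1.88. The glucose transporter gene Slc2a12 had 1.66 and 2.11. All 4 measured genes of organic anion transport were above 1, among them Slc22a17 at 1.63 and 1.70. The serotonin receptor gene Htr2c, a hallmark of the plexus, had 1.76 and 1.65.

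Chaperones and folding enzymes of the endoplasmic reticulum were all above 1. The 12 measured genes of the list had a median log2 ratio of 0.59 in Fit2-WT and 0.79 in Fit2-Mut, and 5 were past 1.5-fold in both, beside 6.42% of all genes. Hspa5, the lumenal chaperone BiP, had 994 and 1438 CPM against 783 and 882 in panel-rich cells, ratios of 1.27 and 1.63. Hsp90b1, its partner GRP94, had 1014 and 1271 against 682 and 731, ratios of 1.49 and 1.74. Calr, the calcium-binding lectin calreticulin, had 468 and 795 against 362 and 381, ratios of 1.29 and 2.09. Dnajc3, a co-chaperone of BiP, had 1.81 and 1.96, and the neurotrophic factor gene Manf 1.62 and 1.74. At 4000 to 10000 UMIs the medians were 0.46 and 0.70. Several genes of this list carry the endoplasmic reticulum stress element (CCAAT, 9 bases of any kind, then CCACG), through which the unfolded protein response is known to act. It was searched as exact letters on both strands of RefSeq promoter windows that run from 250 bases before to 50 after each start (GRCm38.p6). It was found in 37 of 27025 genes with a window, 0.137%, and in 8 of 26 genes of the whole list with a window, 30.8%. Among the 11 of these that were measured it was found in 6, namely Hspa5, Hsp90b1, Calr, Canx, Pdia6 and Dnajc3. The 250 bases before the start are shown for the 3 of these with the most UMIs, with the element in capitals. A link between the element and the differences between libraries below was not tested. Pdia6, which has the element, had a ratio of Fit2-Mut over Fit2-WT of 1.08. Pdia4 and Dnajb11, for which no element was found, had 1.60 and 1.52, with intervals that include 1. The Hspa5 window is chr2:34771840-34772089 on the plus strand, the Hsp90b1 window chr10:86705445-86705694 on the minus strand and the Calr window chr8:84846932-84847181 on the minus strand. In Calr the element lies on the opposite strand and reads as its reverse complement. A match is a description of the letters and not a measured site. The list was drawn up for genes of endoplasmic reticulum stress and chaperones. Its share of matches thus describes the list and not these cells.
Hspa5: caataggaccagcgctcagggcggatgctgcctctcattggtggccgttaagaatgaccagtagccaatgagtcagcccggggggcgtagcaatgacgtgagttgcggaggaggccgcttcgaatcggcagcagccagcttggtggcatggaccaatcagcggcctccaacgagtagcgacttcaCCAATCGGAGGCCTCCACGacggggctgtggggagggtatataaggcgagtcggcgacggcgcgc
Hsp90b1: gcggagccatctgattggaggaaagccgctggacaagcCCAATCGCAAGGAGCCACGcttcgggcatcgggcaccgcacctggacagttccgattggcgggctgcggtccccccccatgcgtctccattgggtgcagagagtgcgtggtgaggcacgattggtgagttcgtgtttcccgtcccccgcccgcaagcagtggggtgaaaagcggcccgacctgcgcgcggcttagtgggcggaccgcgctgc
Calr: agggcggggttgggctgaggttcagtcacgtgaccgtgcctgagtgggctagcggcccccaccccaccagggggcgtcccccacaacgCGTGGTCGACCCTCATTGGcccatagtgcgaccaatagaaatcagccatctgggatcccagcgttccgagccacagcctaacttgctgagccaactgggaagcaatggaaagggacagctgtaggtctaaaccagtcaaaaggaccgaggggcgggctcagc

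Transcripts for mitochondrial proteins split by the genome that encodes them. All 11 measured mitochondrially encoded genes were above 1 in both libraries, with a median of 0.78 in Fit2-WT and 0.51 in Fit2-Mut. The median low-panel cell had 75.9 and 74.5 mt-Co3 UMIs per 10000, a subunit of cytochrome c oxidase, against 40.7 and 48.2 in panel-rich cells. None of the 11 was past 1.5-fold in both, beside 6.42% of all genes. At 4000 to 10000 UMIs the medians were 0.57 and 0.33. With at most 5% mitochondrial UMIs they were 0.20 and 0.54, and with a panel limit of 0 they were 0.034 and 0.28, so the size of this difference depends on which cells enter. In contrast, 73 of 76 nuclear genes of oxidative phosphorylation were below 1 in both libraries, with medians of -0.70 and -0.69, and 43 were past 1.5-fold down, beside 33.8% of all genes. Atp5e, a small subunit of ATP synthase, had 11.8 and 10.7 UMIs per 10000 in the median low-panel cell against 21.5 and 20.3. Atp5o had ratios of 0.426 and 0.543 and Ndufb10, a subunit of complex I, 0.492 and 0.538. Without Ttr in the totals the medians of the nuclear list were -0.39 and -0.35, and those of the mitochondrial list 1.09 and 0.85. With the median of all genes set to 0 those of the nuclear list were -0.19 and -0.067, close to no difference, and those of the mitochondrial list 1.29 and 1.14. All 13 measured genes of fatty acid oxidation were below 1 in both libraries, with medians of -0.61 and -0.67, close to the median of all genes.

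Several further lists were mostly below 1. All 75 cytosolic ribosomal protein genes were below 1, with medians of -0.50 and -0.51, but with the median of all genes set to 0 they became 0.018 and 0.12, so their direction depends on the scaling. Of 7 measured genes of the motile cilium, 6 were below 1 in both libraries and 5 past 1.5-fold down, beside 33.8% of all genes, with medians of -0.89 and -0.89. The size depends on the scale and library. At 4000 to 10000 UMIs and without Ttr in the totals, the whole list took a median of 0.342% in Fit2-WT low-panel cells, near 0.371% in panel-rich cells. In Fit2-Mut it took 0.246% against 0.379%. Calml4 had 760 and 739 CPM and ratios of 0.541 and 0.534, and Rsph1, of the radial spoke, 0.448 and 0.657. Rsph9 was the exception at 1.22 and 1.28. All 4 measured transcription factors were below 1: Msx1 (0.522 and 0.714), Id1 (0.518 and 0.614), Id3 (0.563 and 0.727) and Otx2 (0.572 and 0.738), of which Otx2 entered the selection. Their medians were -0.88 and -0.47, so in Fit2-Mut they were less reduced than the median gene. Past 1.5-fold down in both libraries was 1 of the 4, beside 33.8% of all genes. The 5 measured junction genes were mixed, with 2 above 1 and 3 below in both libraries and medians of -0.48 and -0.28, above those of all genes. The tight junction gene Cldn2, a water and cation pore, had 1.96 and 1.66 on 18 and 33 UMIs, while Ezr, the ezrin linker of microvilli, had 0.505 and 0.642 and the keratin gene Krt18 0.650 and 0.578. Of 7 measured genes of metal binding and iron, 2 were above 1 in both libraries and 4 below. Their medians, -0.41 and -0.45, were also above those of all genes. The metallothionein gene Mt3 had 0.576 and 0.595 and the ferritin gene Fth1 0.722 and 0.733.

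Gene families taken by symbol after the values had been seen serve only as a description. Over all 1730 genes, 23.6% in Fit2-WT and 19.4% in Fit2-Mut were above 1, so a family below 1 is near the background unless its median is far below that of all genes. Of 17 measured solute carriers outside Slc25, 15 were above 1 in both libraries and 8 past 1.5-fold up, beside 6.42% of all genes. Of 28 genes named for a transmembrane protein, 20 were above 1 in both libraries and 6 below. Of 5 subunits of the oligosaccharyltransferase, which adds sugars to proteins entering the endoplasmic reticulum, 4 were above 1 and 1 below. Of 6 genes of the translocon and signal peptidase, 4 were above 1 and 2 below. None was past 1.5-fold up and 1 was past 1.5-fold down, beside 6.42% and 33.8% of all genes. The proton pump was mixed, with medians of -0.03 and -0.63. Of 12 genes, 5 were above 1 in both libraries, all of them past 1.5-fold, beside 6.42% of all genes. A further 6 were below, 4 of them past 1.5-fold, near the 33.8% of all genes. All 29 proteasome subunits were below 1, with medians of -0.84 and -0.89, and 16 were past 1.5-fold down, beside 33.8% of all genes. All 7 subunits of the cytosolic chaperonin were below 1, with medians of -0.62 and -0.69, close to those of all genes. All 12 ubiquitin-conjugating enzymes (medians -0.96 and -0.42), all 17 splicing factors (-0.79 and -0.66) and all 5 mitochondrial carriers of the Slc25 family (-0.62 and -0.91) were below 1 as well. Of 21 translation initiation factors 20 were below 1 in both, and of 38 mitochondrial ribosomal proteins 35 were.

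**Figure D3:**
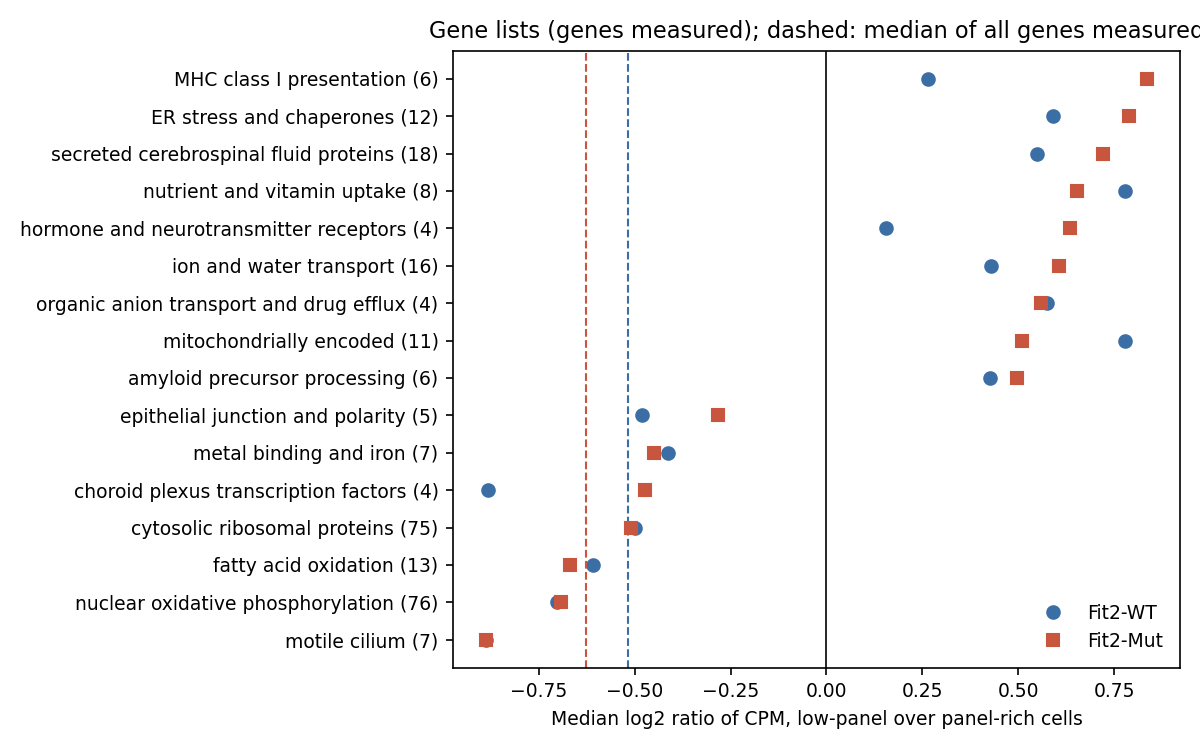
Median log2 CPM ratio of low-panel over panel-rich cells for each gene list with at least 4 measured genes, in Fit2-WT (blue circles) and Fit2-Mut (red squares); dashed lines give the median of all 1730 genes in each library. Secreted, transporter, chaperone and mitochondrially encoded lists lie right of 0, and nuclear oxidative phosphorylation (-0.70 and -0.69) and motile cilium (-0.89 and -0.89) left of both dashed lines.

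Regional identity was read from genes that mark forebrain or hindbrain plexus. With cells thinned to 2000 UMIs, none of 22 Fit2-WT and none of 42 Fit2-Mut low-panel cells held a UMI of 20 hindbrain genes, which allows shares of up to 15.4% and 8.41%. Panel-rich cells had 0.762% and 0.687% and ependymal cells 7.95% and 10.1%. Forebrain genes were found in 4 of 22 low-panel cells (18.2%, 5.19 to 40.3) and 2 of 42 (4.76%, 0.582 to 16.2), against 27.1% and 28.2% of panel-rich and 14.8% and 21.7% of ependymal cells. Unthinned, the shares were 41.7% and 29.5% of low-panel and 76.1% and 72.5% of panel-rich cells, at unequal depth. The low-panel forebrain share was above that of ependymal cells in Fit2-WT, with an interval that includes the ependymal share, and under it in Fit2-Mut. With so few cells at these depths, neither share can be read as a regional identity.

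Among the low-panel cells themselves, counts varied most for Ttr, Malat1, mt-Atp6, mt-Co3, Gm42418, mt-Cytb, Enpp2, mt-Co2, mt-Nd4 and mt-Co1, ordered by the worse of each gene's 2 library ranks on the Fano factor, the variance over the mean at 2000 UMIs. The factor was 33.6 in Fit2-WT and 57.6 in Fit2-Mut for Ttr, where panel-rich cells had 144 and 143. It was 5.62 and 7.31 for Enpp2, while the median gene had 0.952 and 1.02. For Malat1 it was 20.1 and 11.5, and 13.8 and 3.35 without the cells that stand apart, where Ttr had 34.2 and 43.9 and Enpp2 5.18 and 7.37. The noncoding transcript Gm42418, which overlaps ribosomal RNA, had 41.3 in Fit2-WT, where 1 cell held 176 of its 697 UMIs, and 3.44 in Fit2-Mut, the order of Fit2-WT alone putting it above Ttr. Per-cell Ttr ran from 5.31% to 56.4% of UMIs in Fit2-WT and from 1.93% to 52.9% in Fit2-Mut, and the 2 ranges overlapped almost fully. Without the cells that stand apart, of which 3 were set apart by low Ttr, they were 24.9% to 56.4% and 17.0% to 52.9%.

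The study set Fit2-Mut against Fit2-WT, and the targeted gene was looked at first. Fitm2, the mouse gene for FIT2 (chromosome 2, 163466379 to 163472629, minus strand, mm10), encodes an endoplasmic reticulum protein of lipid droplet formation. No Fitm2 UMI was found in the Fit2-WT low-panel cells, and 6 were found in those of Fit2-Mut, 19.7 CPM (7.23 to 42.9). A count of 0 allows 19.5 CPM in Fit2-WT, so no difference was detectable at this depth. In panel-rich cells Fitm2 had 5.73 and 5.14 CPM, a ratio of 0.897 (0.659 to 1.22). The gene counts say nothing of the mutation where a 3' tag falls outside the altered part. App, the precursor of amyloid beta, gave 71 and 146 UMIs (461 and 479 CPM), with a ratio of 1.04 (0.777 to 1.40).

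For most genes the ratio of Fit2-Mut over Fit2-WT in low-panel cells lay within 1.5-fold, and the highest ratios included a chaperone and several membrane proteins. Of 907 genes whose 2 libraries summed to 50 or more UMIs, 56 were at least 1.5-fold higher in Fit2-Mut (6.17%) and 49 at least 1.5-fold lower (5.4%), with a median log2 ratio of 0.015. The split depends on the scaling: it was 131 higher and 22 lower with TMM factors, where the median was 0.21, and 106 higher and 26 lower with median-of-ratios factors, where it was 0.15. Without the 5 cells that stand apart it was 40 higher and 54 lower.

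Slc4a2, the basolateral anion exchanger that brings in chloride, gave 18 UMIs in the Fit2-WT and 88 in the Fit2-Mut library. The median cell had 0.811 and 2.71 per 10000 and the levels were 117 and 289 CPM, a ratio of 2.47 (1.48 to 4.36), where panel-rich cells gave 1.09 (1.03 to 1.15). The cells of the 2 libraries overlapped, from 0 to 5.40 and from 0 to 7.71 per 10000. Calr had 72 and 242 UMIs, at 468 and 795 CPM, and a ratio of 1.70 (1.30 to 2.24), against 1.05 in panel-rich cells. Bst2, tetherin, an interferon-induced membrane protein, had 23 and 86 UMIs and a ratio of 1.89 (1.18 to 3.14), and 1.25 in panel-rich cells. Erlec1, a lectin of endoplasmic reticulum quality control, had 2.05 (1.21 to 3.65), the ascorbate-dependent reductase gene Cyb561 2.05 (1.19 to 3.72), and the potassium channel gene Kcnk1 1.73 (1.18 to 2.58). The lysosomal membrane gene Laptm4a had 1.58, the tetraspanin gene Cd9 1.54 and the mitochondrial pyruvate carrier gene Mpc1 1.65. Scand1 had 1.97, the import subunit gene Tomm7 1.52 and the imprinted splicing gene Snrpn 2.16. These 12 genes were chosen for their ratios in these cells.

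The 12 lowest genes were led by Rnf10, a ubiquitin ligase, with 42 and 40 UMIs in Fit2-WT and Fit2-Mut, or 273 and 131 CPM, for a ratio of 0.481 (0.304 to 0.760) against 0.977 in panel-rich cells. Cox6b2, a cytochrome c oxidase subunit, had 0.578, the mitochondrial carrier gene Slc25a39 0.571, the complex III gene Uqcrc2 0.537 and the outer membrane channel gene Vdac1 0.602. The proteasome genes Pomp and Psma3 had 0.556 and 0.567. Eno1, a glycolytic enzyme with a near-identical copy, had 0.666 (0.495 to 0.898), and 0.811 in panel-rich cells. Ptms had 0.536, Snrpd3 0.505, the dynein light chain gene Dynlt3 0.592 and the lectin gene Lgals1 0.659. Outside the rule for named genes, Kcnj13 had 162 and 218 UMIs and a ratio of 0.680 (0.552 to 0.839). Kcnj13 entered the selection, and 31 of its 162 Fit2-WT UMIs came from 1 cell. The iron carrier gene Trf had 58 and 47 and a ratio of 0.410 (0.273 to 0.612), and 29 of its 58 Fit2-WT UMIs came from 1 cell. Malat1 had a ratio of 0.582, which became 0.893 without the 5 cells that stand apart.

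As a list, the 12 genes of endoplasmic reticulum chaperones and stress had a median log2 ratio of Fit2-Mut over Fit2-WT of 0.34, beside 0.015 over all genes. All 12 were above 1, beside 51.2% of all genes. Of the 12, 3 were past 1.5-fold (Calr, Pdia4 at 1.60 and Dnajb11 at 1.52), beside 6.17% of all genes. Hspa5 had 153 and 438 UMIs, a median of 9.08 and 12.6 per 10000, and a ratio of 1.45 (1.20 to 1.75). Hsp90b1 had 156 and 387 UMIs, 10.0 and 11.2 per 10000 and 1.25 (1.04 to 1.52). Pdia3, a disulfide isomerase, had 1.17 (0.919 to 1.49). In panel-rich cells, 11 of the 12 were above 1 by ratios of at most 1.24 (Pdia4), with Selenos at 0.981. Per cell and without Ttr in the total, the list took a median of 0.780% of UMIs in Fit2-WT low-panel cells, with quartiles of 0.654% and 1.01%, and 1.12% in Fit2-Mut, with quartiles of 0.732% and 1.56%. The quartile ranges overlapped. In cells with 2 or 3 panel UMIs the medians were 0.634% and 0.809%, so a difference in the same direction was not particular to low-panel cells. In panel-rich cells the medians were 0.461% and 0.482%. Without the 5 cells that stand apart the list median was 0.40, with cells of at least 5000 UMIs 0.20, and with a panel limit of 0 it was 0.17. The difference between low-panel and panel-rich cells in this ratio was not tested, as there is 1 library per genotype.

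**Figure D4:**
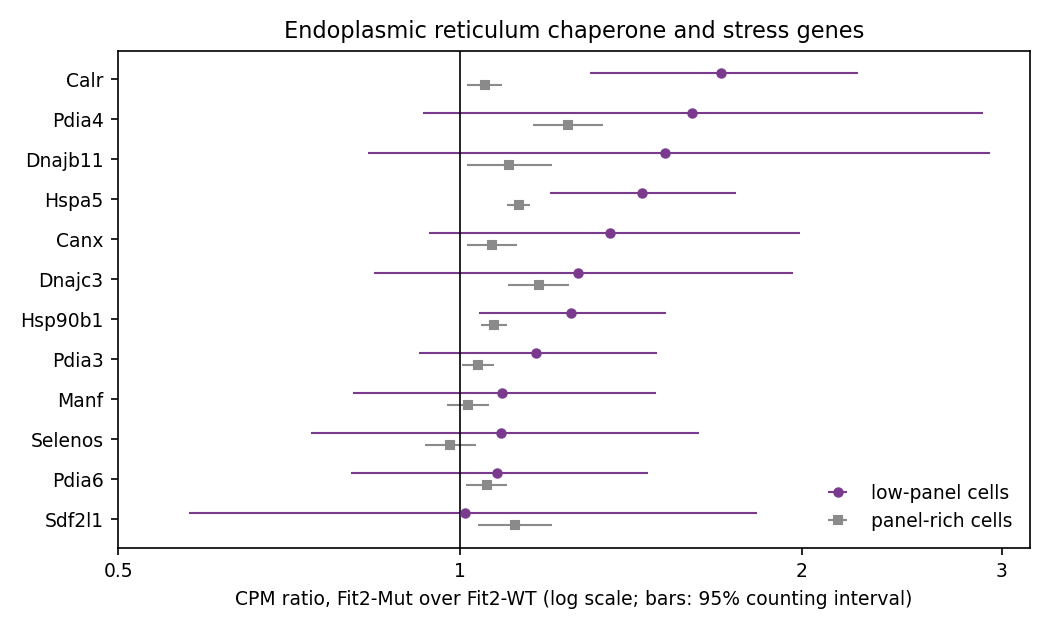
CPM ratio of Fit2-Mut over Fit2-WT on a log axis for the 12 measured genes of endoplasmic reticulum chaperones and stress, in low-panel cells (purple) and panel-rich cells (grey), with 95% counting intervals. Points of low-panel cells lie between 1.01 (Sdf2l1) and 1.70 (Calr), with intervals above 1 for Calr, Hspa5 and Hsp90b1.

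Of all 907 genes, 51.2% were above 1, 6.17% were past 1.5-fold up and 5.4% past 1.5-fold down. Among the other lists, secreted proteins had a median of 0.10, with 13 of 18 above 1 and 1, Trf, past 1.5-fold down. Ion and water transport had 0.11, with 9 of 14 above 1 and Slc4a2 past 1.5-fold up. Nuclear oxidative phosphorylation had -0.03 and ribosomal proteins -0.05. The mitochondrially encoded list had -0.13, with 2 of 11 above 1, but 0.09 without the 5 cells that stand apart. The 5 measured genes of amyloid precursor processing had a median of 0.45, above that of the chaperone list. All 5 were above 1 and 1 was past 1.5-fold, beside 51.2% and 6.17% of all genes. Itm2b, an inhibitor of amyloid aggregation, had 150 and 430 UMIs and 1.45 (1.20 to 1.76), against 670 and 708 CPM in panel-rich cells. The gamma-secretase subunit Psenen had 1.52 (0.953 to 2.49). The 5 measured genes of MHC class I presentation had a median of 0.44. Of these, 4 were above 1 and 2 past 1.5-fold, beside 51.2% and 6.17% of all genes. The chaperones Calr, Canx and Pdia3 counted above are 3 of the 5. B2m, the light chain of class I molecules, had 11 and 50 UMIs and a ratio of 2.30 (1.18 to 4.89), or 1.98 (1.01 to 4.24) without the 5 cells. The microglial marker sum differed in the same direction, at 104 and 417 CPM, and at 92.3 and 106 without those cells.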

How the data were processed

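Dissociated whole brain was profiled in droplets by 3' single-cell RNA sequencing, per the labels' protocols. The authors deposited raw UMI counts for 32285 genes in all barcodes, without normalization. The build was mm10 and the tool Cell Ranger, 7.1.0 per the file headers but 7.0.0 per the submitters' processing notes. The handling of intronic and multi-mapped reads is not given in the sources used here. The cells, gene lists and comparisons were chosen with earlier results of these data known, and the gene families, the floor of 10 expected UMIs and the alternatives so marked below after these values were seen.

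The selection was applied to every barcode without a doublet filter. For each class of cells the raw counts were added up and scaled by their total (CPM). Intervals are exact Poisson, exact conditional (ratios) or exact Clopper-Pearson (shares), at 95%; they treat UMIs as independent, and understate the error of a gene whose UMIs come from few cells. A gene counted as higher or lower at a ratio of 1.5 either way. Fit2-Mut over Fit2-WT used genes whose summed UMIs reached 50. Low-panel over panel-rich used genes with at least 10 UMIs expected in the low-panel cells of each library, the same direction being required in both. Named genes were the 12 highest and 12 lowest by the interval bound nearest to 1, found in at least 5% of cells, with a CPM no lower than 0.5 times the free-RNA level (barcodes of 10 to 100 UMIs). Mitochondrial, ribosomal, sex-linked, haemoglobin and unnamed models were not named. From each list came its most abundant genes, not every gene past 1.5-fold. Equal depth was 2000 UMIs per cell, which left out 2 low-panel cells in each library. Ratios and thinning were tested on simulated counts. Of the 32285 gene identifiers, 32158 were found in GENCODE M21, which gave coordinates. Tools were Python 3.11.15, NumPy 2.4.6, SciPy 1.17.1, pandas 2.3.3, Scanpy 1.11.5, Matplotlib 3.10.9 and edgeR 4.0.16 (TMM factors only). No test across samples was made, since each group is 1 library.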

Additional observations from a re-analysis of the deposited data

Results flagged for a closer look

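For 10 genes the ratio of Fit2-Mut over Fit2-WT lay on opposite sides of 1 in low-panel and panel-rich cells, with both counting intervals clear of 1. The difference itself was not tested, since there is 1 library per genotype. Tomm7, a subunit of the mitochondrial import pore, had 1.52 in low-panel cells (403 and 614 CPM) and 0.945 in panel-rich cells. Ndufb2, of complex I, had 1.46 and 0.936, and Uqcr10, of complex III, 1.45 and 0.953. Clu had 1.15 and 0.980. Below 1 in low-panel cells were mt-Nd1 at 0.810 (1.08 in panel-rich cells), mt-Nd5 at 0.783 (1.06), mt-Co1 at 0.874 (1.10), mt-Co2 at 0.911 (1.12), mt-Co3 at 0.890 (1.12) and mt-Cytb at 0.913 (1.10). Without the 5 cells that stand apart, mt-Co1 had 1.04, mt-Co2 1.06, mt-Co3 1.06 and mt-Cytb 1.06, while mt-Nd1 had 0.913 and mt-Nd5 0.918, all 6 with intervals that include 1. Under the same change Tomm7 had 1.42, Uqcr10 1.43 and Clu 1.16, and Ndufb2 1.41 with an interval that includes 1 (0.984 to 2.07).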

How the results depend on the processing

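No paired analysis was possible because each genotype is 1 library. With only 24 and 44 cells, genes near the floor of 50 UMIs have intervals wider than a 1.5-fold difference, and the library, its animals and its dissociation cannot be told apart from the genotype.

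The share of low-panel cells was 0.285% (Fit2-WT) and 1.17% (Fit2-Mut) at a panel limit of 0, and 5.63% and 8.41% at 3. The counts of 56 higher and 49 lower genes in Fit2-Mut became 131 and 22 with TMM, 106 and 26 with median-of-ratios factors, 11 and 10 in thinned cells, 278 and 263 from 20 UMIs, 13 and 12 from 100 UMIs, and 103 and 171 at a panel limit of 3. At a limit of 0, 35 were higher. The counts of 111 higher and 584 lower genes against panel-rich cells became 18 and 53 at a panel limit of 0, 39 and 153 in thinned cells, and 63 and 333 from 20 expected UMIs. With at most 5% mitochondrial UMIs 273 were lower. Among alternatives chosen after seeing the data, they became 260 and 129 with Ttr left out, 309 and 29 with the median of all genes set to 0, and 432 and 2856 with no floor on expected UMIs; 265 were lower at 4000 to 10000 UMIs. Fewer cells or genes enter several of these settings. The cause of the other changes was not tested. Ribosomal proteins turned from -0.50 and -0.51 to 0.018 and 0.12 with the median of all genes set to 0. Forebrain genes were found in 41.7% and 29.5% of unthinned cells. The chaperone list's median of 0.34 ranged from 0.17 to 0.53 over 15 settings.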
